A study of Arabidopsis thaliana with 11 samples.

Results

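The comparison described here is the brassinazole by ARF2 genotype interaction in dark-grown Arabidopsis seedlings. For each transcript it is the change on brassinazole (BRZ) in the arf2 mutant minus the change on BRZ in the Col wild type, on a log2 scale. All 11 Affymetrix ATH1 arrays of the series enter it. They are 3 of Col on mock medium, 3 of Col on 0.5 µM BRZ, 3 of arf2 on mock medium and 2 of arf2 on 0.5 µM BRZ. All seedlings were etiolated and 4 days old, and RNA came from whole seedlings. The labels name the mutant only as arf2, without an allele, and a further array of arf2 on BRZ was left out by the submitters after quality control. Of 21886 probe sets tested, 184 were called at an adjusted p under 0.05, which is 0.841% (limma, two-sided, Benjamini-Hochberg over all probe sets tested). The interaction was below 0 for 129 of them (0.589% of those tested) and above 0 for 55 (0.251%). At an unadjusted p under 0.05 there were 2025 probe sets (9.25%).

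Brassinosteroids are steroid hormones that promote the elongation of the hypocotyl in darkness, and BRZ blocks their synthesis at a cytochrome P450 step. Their signal passes from the receptor kinase BRI1 through inhibition of the GSK3-like kinase BIN2 to the transcription factors BZR1 and BES1. ARF2 is an auxin response factor that binds auxin response elements in promoters and acts mainly as a repressor, and BIN2 is known to phosphorylate it. Dark-grown seedlings with too little brassinosteroid have short, thick hypocotyls and open cotyledons, and arf2 mutants are known for enlarged organs and late ageing of leaves.

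The interaction is read from 4 group means, so a shift of any 1 group moves it. Median log2 values of the arrays ran from 5.93 to 6.28, and the lowest were Col mock arrays 2 and 1. Departures from the group means ran together on Col mock array 2 and arf2 mock array 3 (r = 0.60 across probe sets, which are not independent). The 25S ribosomal RNA control read 95.9, 59.7 and 77.3 for Col mock, 97.2, 85.3 and 131 for Col BRZ, 263, 193 and 173 for arf2 mock, and 33.6 and 63.9 for arf2 BRZ. All arf2 mock arrays thus lay above the other 8, and the difference of differences was -2.59, the same sign as most of the calls; its part in them was not tested. For the same difference computed on the 3′ minus 5′ log2 ratio of the control transcripts, the values were -0.01 for GAPDH, 0.48 for actin and -0.10 for ubiquitin. Among the markers of single organs, PYK10, a glucosidase of root and hypocotyl endoplasmic reticulum bodies, was measured and bright, at mean log2 values of 13.19 for Col mock, 13.07 for Col BRZ, 13.04 for arf2 mock and 13.08 for arf2 BRZ, with an interaction of 0.16 ± 0.14, adjusted p 0.811 (values after ± are standard errors, SE, of the log2 interaction from the fit). The root hair expansins EXPA7 (0.10 ± 0.28, adjusted p 0.95) and EXPA18 (-0.46 ± 0.40, adjusted p 0.805) lay near the lower quartile of the arrays, an intensity of 22.7, and like the guard cell regulator FMA (-0.25 ± 0.17, adjusted p 0.725) were not called. No probe set used here names ARF2 alone, so its own level was not analysed here. In whole seedlings, fewer cells of a type and less RNA per cell cannot be told apart.

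Most of the called interactions came with a difference between the genotypes on mock medium, and fewer with one on BRZ. Of the 184, 168 were also called between arf2 and Col on mock, 119 higher in arf2 and 49 lower, against 1609 calls among all probe sets tested (7.35%). On BRZ the genotypes differed at 22 of the 184, against 135 of all tested (0.617%). The BRZ effect was called at 88 of the 184 in Col (1956 of all tested, 8.94%) and at 130 in arf2 (1271, 5.81%). These 4 contrasts share their arrays with the interaction, so their counts describe the called set and are no separate evidence for it.

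By their calls the 184 fell into 5 classes. The BRZ effect was called in arf2 and not in Col for 94, with 78 interactions below 0 and 16 above. For 52 it was called in Col and not in arf2, with 29 below 0 and 23 above. A further 16 were called in both genotypes with opposite signs (9 below 0, 7 above), 20 in both with the same sign (11 and 9), and 2 in neither. A response that was not called in one genotype is not shown to be absent there. Seen from the responses, 52 of the 1360 probe sets called in Col and not in arf2 also had a called interaction (3.82%), and so did 94 of the 675 called in arf2 and not in Col (13.9%). For the other probe sets whose response was called in 1 genotype, the difference between genotypes did not pass the test. When a class required an effect of at least 2-fold in place of a call, 76 had it in arf2 alone, 29 in Col alone and 73 in neither.

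**Figure D1:**
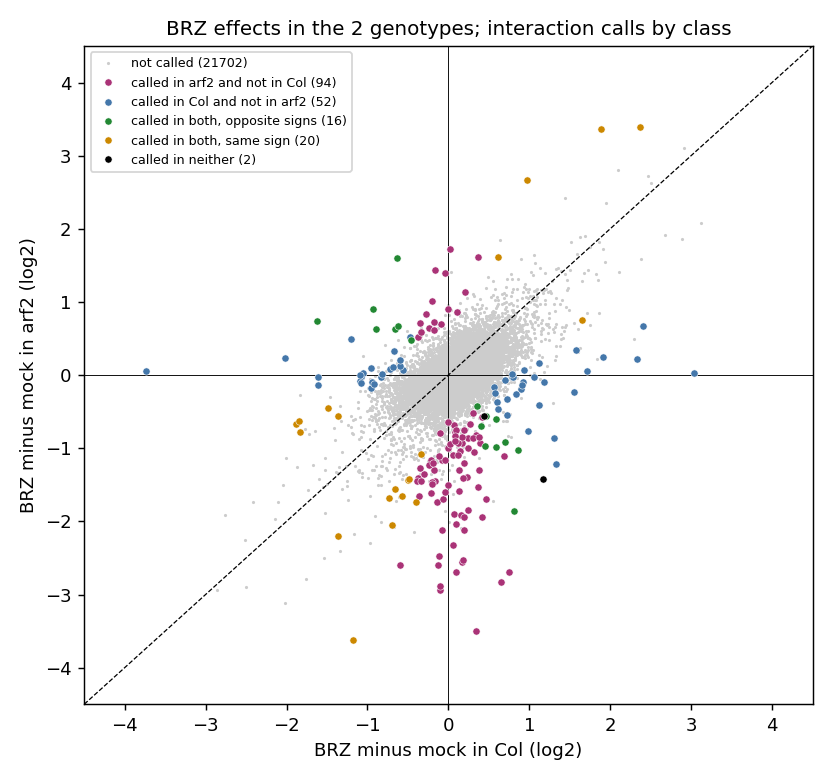
Each point is a probe set, placed by its BRZ effect in Col (x axis, log2) and in arf2 (y axis, log2); the 184 with a called interaction are coloured by class and the others are grey. The 94 called in arf2 alone spread along the vertical, mostly downward, and the 52 called in Col alone spread along the horizontal.

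The shape over the 4 group means was described next. One group was called odd when its gap to the nearest other mean exceeded the range of the other 3 means. High only in arf2 on mock was the shape of 86 of the 184 (46.7%), against 7.95% of all tested. Low only in Col on mock was that of 21 (11.4%, against 13.3%), high only in Col on mock of 21 (11.4%, against 6.95%) and low only in arf2 on mock of 15 (8.15%, against 3.65%). An odd group on BRZ was less frequent, at 5 for high (2.72%, against 5.84% of all tested) and 5 for low in Col (2.72%, against 3.68%), and 2 for high (1.09%, against 5%) and 3 for low in arf2 (1.63%, against 4.6%). A crossed order was found for 2 with Col BRZ and arf2 mock high (1.09%, against 2.4%) and for 2 with Col mock and arf2 BRZ high (1.09%, against 1.1%), and 22 had no single shape, against 45.5% of all tested. In each of the 158 with an odd group, every array of that group lay beyond all arrays of the other groups. These probe sets were selected on the same values, so this separation is no separate evidence for the shapes. Among all tested probe sets the arf2 mock arrays lay above all others at 5.70% and below all others at 2.42%, and the Col mock arrays above at 1.79% and below at 4.14%. The median log2 level of the 86 was 6.36 for Col mock, 6.36 for Col BRZ, 8.44 for arf2 mock and 6.45 for arf2 BRZ. All of these 86 were called between genotypes on mock, and 3 on BRZ.

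**Figure D2:**
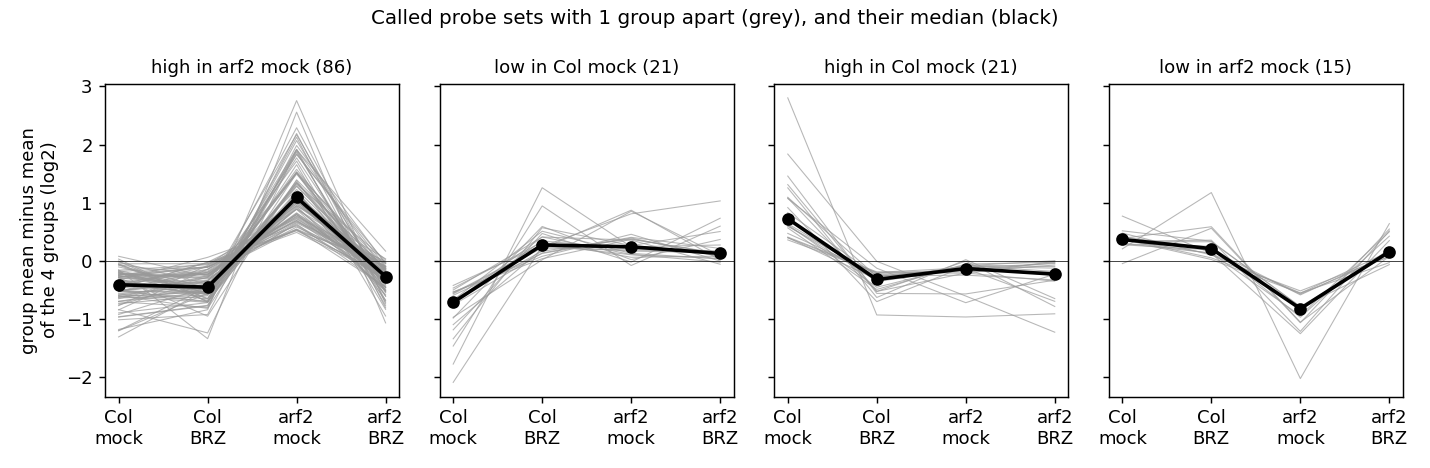
Each thin line is a called probe set, as its group mean minus the mean of the 4 groups (y axis, log2) over the 4 groups (x axis), with 1 panel for each shape that has its odd group on mock and a thick line for the median. The panels hold 86, 21, 21 and 15 probe sets, and the median line has its extreme at the odd group in each.

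Of the 78 interactions below 0 with a response called in arf2 alone, 73 had the shape high only in arf2 on mock. AT1G26380, a berberine bridge type FAD-linked oxidoreductase, read 25.9, 44.1 and 25.3 in the mock-grown wild type, 42.8, 36.4 and 37.6 in the wild type with BRZ, 502, 332 and 623 in mock-grown arf2 and 41.7 and 41.7 in arf2 with BRZ. The 3 arf2 mock arrays stood far above the other 8, which overlapped between groups. The 2 arf2 BRZ values were identical (41.6565), so that group added no spread to the fit. AT1G26380 was 15.3-fold higher in arf2 than in Col on mock and fell by 3.496 on the log2 scale in arf2 on BRZ. The interaction was -3.84 ± 0.35, adjusted p 0.000408. Its neighbour on chromosome 1, AT1G26390, of the same family, read 19.0, 26.6 and 17.5 on the Col mock arrays, 18.0, 18.9 and 21.3 on those of Col with BRZ, 125, 107 and 272 for mock-grown arf2 and 23.0 and 19.0 for arf2 with BRZ, with the same 3 arrays highest. Its interaction was -2.78 ± 0.43, adjusted p 0.0111, and the levels outside arf2 on mock lay near the lower quartile of the arrays. Another family member, AT4G20830, was bright in every group, with 288, 346 and 373 for Col mock, 372, 399.5 and 374 for Col BRZ, 545, 579 and 573 for arf2 mock and 339 and 335 for arf2 BRZ. The arf2 mock arrays were again the highest, by a smaller margin, and the interaction was -0.94 ± 0.15, adjusted p 0.0143. Of 20 berberine bridge genes measured these 3 had a called interaction, all below 0, against 94 of the 12853 probe sets that name 1 gene (0.731%), and the median interaction over the 20 was -0.10, against -0.05 over all probe sets tested. The family list was written after calls had been seen. Here and below, a list gene counts as measured when a tested probe set names it alone. Other members may lie on the 8574 tested probe sets without a gene name, of which 86 were called. The list counts therefore describe the measured members and not whole families. AT1G26390 was no longer called without arf2 BRZ arrays 1 or 2 (adjusted p 0.0602 to 0.0736). The call of AT4G20830 ended without Col BRZ array 2 or arf2 BRZ arrays 1 or 2 (adjusted p 0.0551 to 0.0904).

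AT3G13610 encodes feruloyl-CoA hydroxylase, the enzyme that commits phenylpropanoids to coumarins such as scopoletin. Its intensities were 47.2, 45.8 and 52.1 in the mock-grown wild type, 74.7, 74.0 and 95.7 in the wild type with BRZ, 604, 278 and 735 in mock-grown arf2 and 79.8 and 74.4 in arf2 with BRZ. All arf2 mock arrays lay above all others, array 2 of the 3 well below its partners, and Col and arf2 overlapped on BRZ. On mock it was 10.3-fold higher in arf2, and the interaction was -3.44 ± 0.41, adjusted p 0.00307. CCOAMT, a methyltransferase of the caffeoyl-CoA type, read 56.1, 43.4 and 58.0 on the Col mock arrays, 52.6, 53.4 and 75.1 on those of Col with BRZ, 306, 333 and 472 for mock-grown arf2 and 89.8 and 101 for arf2 with BRZ. Its arf2 arrays lay above the Col arrays on BRZ as well, where the genotypes were not called apart (adjusted p 0.248), and the interaction was -2.13 ± 0.28, adjusted p 0.0047. These were 2 of 6 measured genes of a list of 26 for iron deficiency and coumarins, against 0.731% of probe sets naming 1 gene, and the median interaction of the 6 was -0.36. The list was chosen with earlier results of these data known, so this count is no separate evidence. By limma none of 3 measured immune marker genes of a list of 25 was called, 0 of them also at an unadjusted p under 0.05, with a median of -0.20.

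The smallest adjusted p among the named genes of this shape was that of AT2G16630, a member of the pollen Ole e I and extensin family of cell wall proteins. It read 101, 95.7 and 128 for Col mock, 110.4, 122 and 112 for Col BRZ, 650.2, 705 and 529.6 for arf2 mock and 96.6 and 96.7 for arf2 BRZ. The arf2 mock arrays were several-fold above all others and the other groups lay close together. The interaction was -2.79 ± 0.20, adjusted p 8.25e-05. AT3G16530, a legume-type lectin, read 109, 61.7 and 73.8 in the mock-grown wild type, 91.7, 83.0 and 91.7 in the wild type with BRZ, 234, 523 and 427 in mock-grown arf2 and 65.5 and 62.3 in arf2 with BRZ, with the arf2 mock arrays highest although they differed among themselves by more than the other groups did. Its interaction was -2.71 ± 0.40, adjusted p 0.00854. For AT2G34930, a leucine-rich repeat protein, the intensities were 40.0, 24.4 and 53.3 on the Col mock arrays, 32.1, 37.9 and 33.0 on those of Col with BRZ, 155, 236 and 218 for mock-grown arf2 and 30.3 and 35.6 for arf2 with BRZ, without overlap between arf2 on mock and the rest, and the interaction was -2.48 ± 0.36, adjusted p 0.00893. The defensin PDF1.4 read 29.0, 42.3 and 42.9 for Col mock, 61.7, 57.0 and 63.0 for Col BRZ, 105, 160.0 and 119 for arf2 mock and 46.8 and 72.6 for arf2 BRZ, and its arf2 mock arrays were highest, with Col on BRZ and arf2 on BRZ overlapping. The interaction was -1.80 ± 0.30, adjusted p 0.0182, the 1 call among 10 measured of 13 defensins of that class (written after the calls were seen, median 0.09), against 0.731% of probe sets naming 1 gene. Leaving out arf2 BRZ array 1 ended the AT3G16530 call (adjusted p 0.0566). Without arf2 BRZ array 1, AT2G34930 was not called (adjusted p 0.0716). PDF1.4 was no longer called without Col BRZ arrays 1, 2 or 3 or arf2 BRZ array 1 (adjusted p 0.0557 to 0.124).

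Class III peroxidases, which oxidise phenolics in the wall, did not move as one. AT5G39580 read 348, 352 and 405 in the mock-grown wild type, 415, 307 and 341 in the wild type with BRZ, 912, 802 and 1085 in mock-grown arf2 and 299 and 276 in arf2 with BRZ, with arf2 on mock above all other arrays (-1.62 ± 0.21, adjusted p 0.00436). AT1G14550 was at 20.6, 20.0 and 21.6 on the Col mock arrays, 19.0, 24.6 and 21.2 on those of Col with BRZ, 60.6, 134 and 164 for mock-grown arf2 and 22.0 and 22.1 for arf2 with BRZ, again with arf2 on mock above all other arrays (-2.37 ± 0.42, adjusted p 0.0224). Its levels outside arf2 on mock lay near the lower quartile of the arrays. The remaining called peroxidase, AT2G41480, had the opposite sign and another shape, with 179, 122 and 158 for Col mock, 42.3, 41.1 and 43.7 for Col BRZ, 55.7, 66.3 and 60.7 for arf2 mock and 35.0 and 35.8 for arf2 BRZ. It was highest on the Col mock arrays and fell by 1.84 in Col and by 0.78 in arf2 on the log2 scale, which left an interaction of 1.06 ± 0.19, adjusted p 0.0264. In all, 55 of 73 peroxidases were measured, 1 was called above 0 and 2 below, against 0.731% of probe sets naming 1 gene, and the median was 0.00; this list too was written after the calls were seen. AT1G14550 was still called when Col mock arrays 2 or 3 or arf2 mock arrays 1 or 3 was left out singly, but not without any of the others (adjusted p 0.056 to 0.131). The AT2G41480 call was lost on removal of any single array (adjusted p 0.0574 to 0.142) other than Col mock arrays 1, 2 or 3 or arf2 mock array 2.

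Glycosyltransferases attach sugars to hormones and phenolics, and 2 of 51 measured UGT genes were called, against 0.731% of probe sets naming 1 gene, namely UGT84A3 (-1.29 ± 0.24, adjusted p 0.031) and UGT73B1 (-0.99 ± 0.20, adjusted p 0.0476). UGT84A3 read 23.8, 36.8 and 26.1 in the mock-grown wild type, 22.8, 21.9 and 21.4 in the wild type with BRZ, 82.2, 60.4 and 81.5 in mock-grown arf2 and 22.9 and 24.1 in arf2 with BRZ. Its group means outside arf2 on mock lay near the lower quartile of the arrays. UGT73B1 read 159.8, 212 and 219 on the Col mock arrays, 180.3, 179.8 and 181 on those of Col with BRZ, 476, 458 and 393 for mock-grown arf2 and 183 and 228 for arf2 with BRZ. Both were highest on the 3 arf2 mock arrays, without overlap, and the median interaction over the 51 was -0.10. The small heat shock protein gene AT5G37670 read 37.6, 38.6 and 52.8 for Col mock, 40.7, 39.7 and 40.2 for Col BRZ, 129.9, 117 and 99.5 for arf2 mock and 46.5 and 56.8 for arf2 BRZ, highest in arf2 on mock (-1.08 ± 0.22, adjusted p 0.0453). It was the 1 call among 9 measured of 17 small heat shock genes, against 0.731% of probe sets naming 1 gene, in a list written after the calls were seen. All arf2 mock arrays lay above all others for 6 of these 9, for 9 of the 51 UGT genes and for 5 of the 20 berberine bridge genes, against 5.70% of all tested. The lists differed in this, with 2 of 6 iron deficiency and coumarin genes, 1 of 10 defensins and 3 of 55 peroxidases. It held for 1 of 20 cytochrome P450 genes, 0 of 13 glutathione S-transferases and 0 of 69 chloroplast-encoded genes. The lists were chosen with calls or earlier results of these data known, so these counts are no separate evidence. They also take the brightest probe set of each gene, whereas the 5.70% is over all probe sets. By limma the 13 measured of 42 glutathione S-transferases gave no call (0 at an unadjusted p under 0.05) and neither did the 20 measured of 240 cytochrome P450 genes (1). The other members had no tested probe set naming them alone, so no result for the whole families follows. UGT84A3 was still called when Col mock arrays 2 or 3 or arf2 mock array 2 was left out singly, but not without any of the others (adjusted p 0.0745 to 0.181). The UGT73B1 call was lost on removal of any single array (adjusted p 0.0647 to 0.286) other than Col mock arrays 2 or 3 or arf2 mock array 3. AT5G37670 was still called when Col mock array 3 or arf2 mock array 3 was left out singly, but not without any of the others (adjusted p 0.0529 to 0.276).

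**Figure D3:**
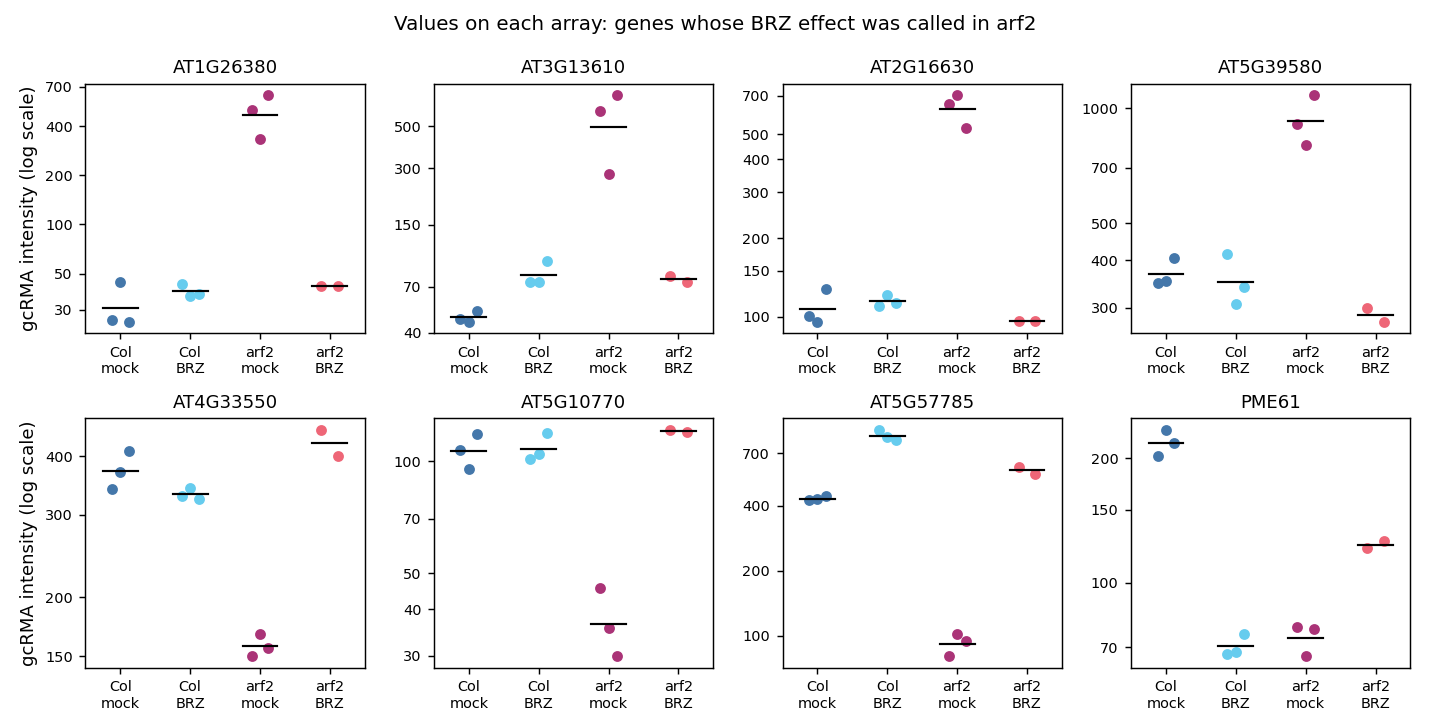
Intensity on a log axis (y) of 8 named genes with a BRZ effect called in arf2, on each of the 11 arrays; the x axis gives the 4 groups, points are arrays and short lines are geometric means. The arf2 mock arrays stand apart from the other 8 in every panel but that of PME61, where they overlap Col on BRZ.

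Of the 16 interactions above 0 with a response called in arf2 alone, 12 had the shape low only in arf2 on mock, the mirror of the former. AT4G33550, of the lipid transfer and protease inhibitor family, read 340.3, 369.7 and 411 in the mock-grown wild type, 329, 342 and 324 in the wild type with BRZ, 149.7, 167 and 156 in mock-grown arf2 and 455 and 401 in arf2 with BRZ. The arf2 mock arrays were the lowest and the arf2 BRZ arrays reached or passed the Col level. It rose by 1.44 on the log2 scale in arf2 on BRZ, and in Col the value was -0.17 (adjusted p 0.286), an interaction of 1.61 ± 0.15, adjusted p 0.000406. AT5G10770, an aspartyl protease, read 108, 95.6 and 119 on the Col mock arrays, 101, 105 and 119 on those of Col with BRZ, 45.8, 35.5 and 29.9 for mock-grown arf2 and 122 and 120.0 for arf2 with BRZ, with the same 3 arrays lowest and no overlap (1.71 ± 0.22, adjusted p 0.00444). AT4G25780, of the family of PR-1-like secreted proteins, read 932, 874 and 915 for Col mock, 681, 792 and 669 for Col BRZ, 463, 569.7 and 409.9 for arf2 mock and 825 and 741 for arf2 BRZ, again lowest in arf2 on mock (1.06 ± 0.18, adjusted p 0.0209). AT5G60760 had the same shape (1.22 ± 0.23, adjusted p 0.0322). AT3G29410, of the terpene synthase family, had another shape, high only in arf2 on BRZ. Its intensities were 32.1, 36.0 and 27.3 in the mock-grown wild type, 42.8, 37.0 and 42.4 in the wild type with BRZ, 42.8, 42.8 and 42.8 in mock-grown arf2 and 163 and 106 in arf2 with BRZ. It rose 3.07-fold in arf2 on BRZ, with an interaction of 1.25 ± 0.23, adjusted p 0.0252. The 3 arf2 mock values and that of Col BRZ array 1 were identical (42.784), so arf2 on mock added no spread to the fit. The germin-like gene AT3G10080, which had no single shape, read 293, 243 and 262 on the Col mock arrays, 223, 193 and 243 on those of Col with BRZ, 196, 205 and 179.9 for mock-grown arf2 and 361 and 332 for arf2 with BRZ, highest in arf2 on BRZ, with arf2 on mock overlapping Col on BRZ at the bottom (1.12 ± 0.17, adjusted p 0.00903). The AT4G25780 call was lost on removal of any single array (adjusted p 0.057 to 0.151) other than Col mock arrays 2 or 3, Col BRZ array 2 or arf2 mock arrays 2 or 3. AT5G60760 was still called when Col mock arrays 2 or 3, arf2 mock array 3 or arf2 BRZ array 1 was left out singly, but not without any of the others (adjusted p 0.0728 to 0.11). The AT3G29410 call was lost on removal of any single array (adjusted p 0.0546 to 0.119) other than Col mock arrays 2 or 3 or arf2 BRZ array 2. The call of AT3G10080 ended without arf2 BRZ array 1 (adjusted p 0.0745).

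Of the 23 interactions above 0 with a response called in Col alone, 17 had the shape high only in Col on mock. AT2G16005, a lipid-recognition domain protein, read 272, 483 and 415 for Col mock, 32.8, 24.1 and 29.3 for Col BRZ, 33.9, 25.9 and 24.5 for arf2 mock and 34.3 and 24.3 for arf2 BRZ. Only the Col mock arrays were high, and the other 8 arrays, near the lower quartile, overlapped. It fell by 3.73 on the log2 scale in Col on BRZ, was -3.77 in arf2 minus Col on mock, and had the highest interaction among the named genes, 3.79 ± 0.33, adjusted p 0.000325. The alpha/beta hydrolase AT4G17470 followed the same shape well above that quartile, with 265, 267 and 262 in the mock-grown wild type, 75.1, 54.2 and 68.7 in the wild type with BRZ, 57.6, 65.8 and 72.5 in mock-grown arf2 and 76.0 and 77.1 in arf2 with BRZ. Its Col mock arrays were nearly equal and stood alone, and the interaction was 2.25 ± 0.19, adjusted p 0.000325. AT4G22460, another lipid transfer family member, read 318, 356 and 339 on the Col mock arrays, 171, 174 and 135 on those of Col with BRZ, 174, 175 and 135 for mock-grown arf2 and 153 and 149 for arf2 with BRZ, with Col on mock highest and the other groups overlapping (1.01 ± 0.19, adjusted p 0.0345). AT2G39430, a dirigent protein of the kind that guides lignan and lignin coupling, read 635, 639 and 612 for Col mock, 313, 346 and 344 for Col BRZ, 371, 397 and 346 for arf2 mock and 371 and 312 for arf2 BRZ, highest on all Col mock arrays (0.79 ± 0.14, adjusted p 0.0264). A second dirigent gene, AT4G11190, read 1658, 1829.8 and 1625 in the mock-grown wild type, 492, 435 and 498 in the wild type with BRZ, 344, 324 and 276 in mock-grown arf2 and 229 and 181 in arf2 with BRZ. It was highest in Col on mock, lower in arf2 on both media and fell in both genotypes, by 1.84 in Col and 0.62 in arf2 on the log2 scale (1.22 ± 0.18, adjusted p 0.00854). These were the 2 calls among 15 measured of 27 dirigent genes, against 0.731% of probe sets naming 1 gene, a list written after the calls were seen, with a median of 0.23. The AT4G22460 call was lost on removal of any single array (adjusted p 0.0527 to 0.191) other than Col mock arrays 2 or 3 or arf2 mock array 2. AT2G39430 was still called when Col mock arrays 2 or 3, arf2 mock array 2 or arf2 BRZ array 2 was left out singly, but not without any of the others (adjusted p 0.0638 to 0.181). AT4G11190 was no longer called without arf2 BRZ array 1 (adjusted p 0.0641).

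A smaller set of 5 probe sets was low only in Col on BRZ. OCT1, an organic cation transporter, read 976, 939 and 864 on the Col mock arrays, 444, 558 and 435 on those of Col with BRZ, 1012, 1024 and 1129 for mock-grown arf2 and 1200.1 and 1059 for arf2 with BRZ. The Col BRZ arrays were the lowest by a wide margin, and the genotypes differed on BRZ by 1.24 (arf2 minus Col, log2, adjusted p 0.000826), with an interaction of 1.06 ± 0.17, adjusted p 0.014. AT2G43535, a small secreted defensin-like peptide, read 1580.0, 2198 and 2262 for Col mock, 978, 865 and 949 for Col BRZ, 1348, 1445 and 1519 for arf2 mock and 1536 and 1332 for arf2 BRZ, with Col on BRZ lowest (1.09 ± 0.20, adjusted p 0.0278). AT1G29195 had the same shape (0.84 ± 0.17, adjusted p 0.0453). AT1G67360, of the family of lipid droplet and rubber particle proteins, fell in both genotypes, from 283, 255 and 289 to 99.2, 91.0 and 105 in Col and from 227, 237 and 243 to 179 and 168 in arf2. Its fall was 1.49 in Col and 0.44 in arf2 on the log2 scale, and the difference was 1.04 ± 0.14, adjusted p 0.0047. The call of OCT1 ended without Col BRZ array 1 or arf2 BRZ array 1 (adjusted p 0.051 to 0.11). The AT2G43535 call was lost on removal of any single array (adjusted p 0.0645 to 0.198) other than Col mock arrays 1, 2 or 3 or arf2 mock array 3. AT1G29195 was still called when Col mock arrays 2 or 3 or Col BRZ array 1 was left out singly, but not without any of the others (adjusted p 0.0684 to 0.269).

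**Figure D4:**
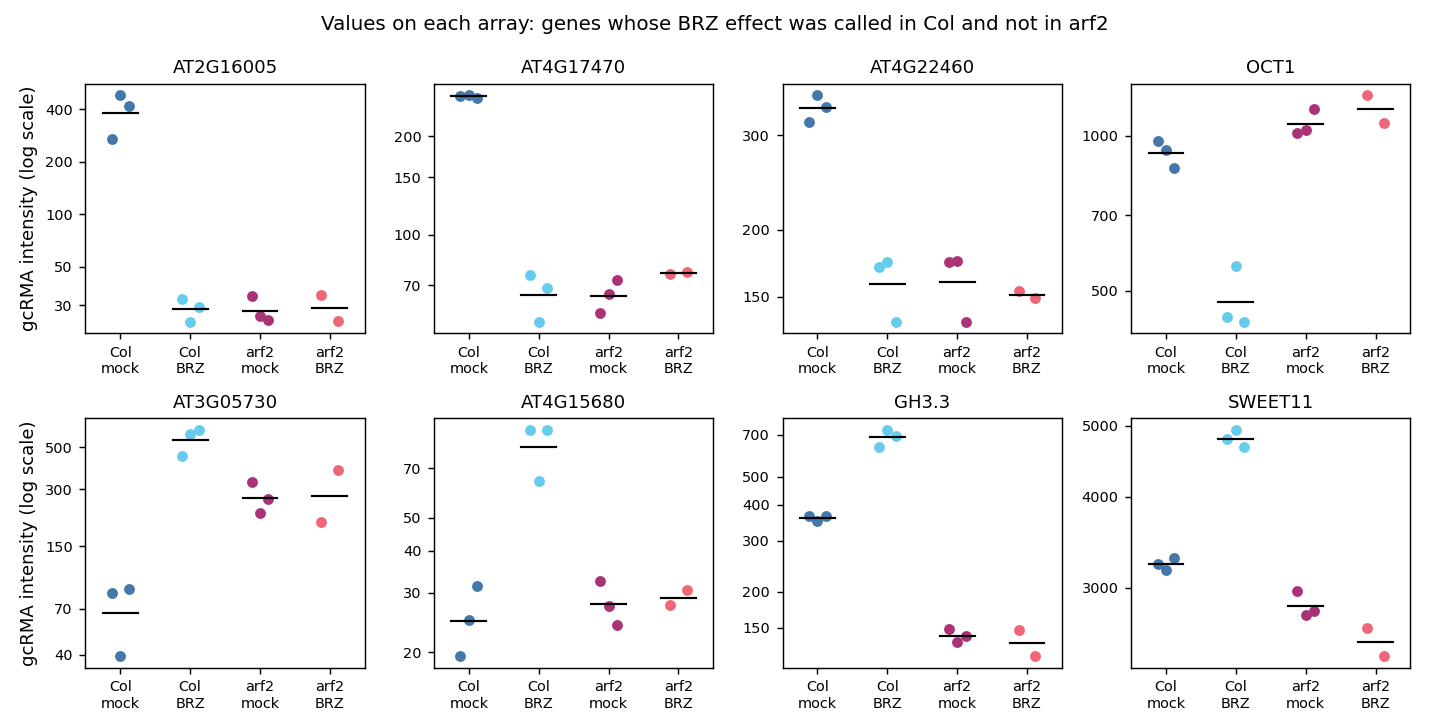
Intensity on a log axis (y) of 8 named genes with a BRZ effect called in Col and not in arf2, on each of the 11 arrays; the x axis gives the 4 groups, points are arrays and short lines are geometric means. The Col mock and Col BRZ arrays are separate in every panel, and the BRZ effect in arf2 was not called for any of the 8.

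Of the 29 interactions below 0 with a response called in Col alone, 20 had the shape low only in Col on mock. AT3G05730, a defensin-like gene, read 84.9, 39.2 and 88.7 in the mock-grown wild type, 447, 587 and 617 in the wild type with BRZ, 327, 225 and 266 in mock-grown arf2 and 200.3 and 379 in arf2 with BRZ. The Col mock arrays were the lowest, and Col on BRZ was above both arf2 groups. It rose 8.18-fold in Col, and its value in arf2 was 0.03 on the log2 scale (adjusted p 0.977), an interaction of -3.00 ± 0.47, adjusted p 0.0114. AT1G78460, a SOUL family heme-binding protein, read 157, 208 and 116 on the Col mock arrays, 303, 344 and 285 on those of Col with BRZ, 518, 628 and 518 for mock-grown arf2 and 353 and 302 for arf2 with BRZ, lowest in Col on mock and highest in arf2 on mock (-1.75 ± 0.27, adjusted p 0.0114). AT5G43520, of the cysteine- and histidine-rich C1 family, read 35.1, 65.7 and 46.7 for Col mock, 104, 139 and 112 for Col BRZ, 230.2, 140.2 and 200.4 for arf2 mock and 116 and 91.0 for arf2 BRZ, likewise lowest in Col on mock and highest in arf2 on mock (-2.16 ± 0.35, adjusted p 0.0143). The jacalin lectin AT1G33790 (-1.27 ± 0.21, adjusted p 0.0144) and AT1G22890 (-1.23 ± 0.23, adjusted p 0.0277) were also lowest on all Col mock arrays. AT1G33790 had no single shape, and its arf2 mock arrays were the highest. The BRZ effects in arf2 were -0.76 for AT1G78460 (adjusted p 0.0511) and -0.86 for AT5G43520 (adjusted p 0.0859). For AT1G33790 the value was -0.54 (adjusted p 0.0649) and for AT1G22890 0.35 (adjusted p 0.328). AT4G15680, a glutaredoxin, differed from these, with 19.5, 24.9 and 31.4 in the mock-grown wild type, 91.0, 64.4 and 91.1 in the wild type with BRZ, 32.5, 27.4 and 24.2 in mock-grown arf2 and 27.5 and 30.7 in arf2 with BRZ. Only Col on BRZ was high, 3.28-fold over Col on mock, with the other groups near the lower quartile of the arrays. The interaction was -1.65 ± 0.28, adjusted p 0.0184. The sucrose transporter SWEET11 had that shape at high intensity, with 3236, 3176 and 3292 on the Col mock arrays, 4791, 4939.6 and 4677 on those of Col with BRZ, 2970.4, 2755 and 2786 for mock-grown arf2 and 2638 and 2415 for arf2 with BRZ. It rose by 0.57 in Col, against -0.17 in arf2 (adjusted p 0.39), the 1 call among 16 measured of 17 SWEET genes, against 0.731% of probe sets naming 1 gene (-0.74 ± 0.12, adjusted p 0.015). AT3G05730 was no longer called without arf2 BRZ array 1 (adjusted p 0.0889). The call of AT1G78460 ended without arf2 BRZ arrays 1 or 2 (adjusted p 0.0566 to 0.0749). Leaving out Col BRZ array 2 or arf2 BRZ arrays 1 or 2 ended the AT5G43520 call (adjusted p 0.0552 to 0.0872). Without Col BRZ arrays 1 or 3 or arf2 BRZ arrays 1 or 2, AT1G33790 was not called (adjusted p 0.0528 to 0.109). The AT1G22890 call was lost on removal of any single array (adjusted p 0.0533 to 0.197) other than Col mock arrays 2 or 3, arf2 mock array 2 or arf2 BRZ array 2. The call of AT4G15680 ended without Col BRZ arrays 1 or 3, arf2 mock array 1 or arf2 BRZ arrays 1 or 2 (adjusted p 0.0529 to 0.133). Leaving out Col BRZ arrays 1 or 2, arf2 mock array 1 or arf2 BRZ arrays 1 or 2 ended the SWEET11 call (adjusted p 0.0505 to 0.0882).

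Among the measured auxin genes, 1 had a called interaction. GH3.3, which links auxin to amino acids and is itself auxin-induced, read 365, 352 and 365 for Col mock, 637, 729 and 695 for Col BRZ, 148, 134 and 140.0 for arf2 mock and 147 and 119 for arf2 BRZ. The groups did not overlap between genotypes, with both arf2 groups below Col on mock and Col on BRZ above all. GH3.3 rose by 0.93 on the log2 scale in Col and changed by -0.09 in arf2 (adjusted p 0.756), an interaction of -1.02 ± 0.15, adjusted p 0.00893. In arf2 minus Col its difference was -1.36 on mock (adjusted p 1.32e-05) and -2.38 on BRZ (adjusted p 1.09e-06), on the log2 scale. The other 4 of 5 measured GH3 genes and the 6 measured of 32 Aux/IAA repressors were not called by limma (GH3.3 is 1 of 5, against 0.731% of probe sets naming 1 gene), and 0 of these Aux/IAA genes passed an unadjusted p under 0.05. Probe sets naming a single SAUR, ARF or brassinosteroid pathway gene were not among those used here.

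Opposite responses in the 2 genotypes were called for 16 probe sets. When each effect had to reach 2-fold, 0 of these 16 stayed opposite. By that rule 12 had an effect in neither genotype, 3 in arf2 alone and 1 in Col alone. PME61, a pectin methylesterase, which removes methyl groups from wall pectin, read 202, 234 and 217 in the mock-grown wild type, 67.6, 68.3 and 75.4 in the wild type with BRZ, 78.3, 66.5 and 77.4 in mock-grown arf2 and 121 and 126 in arf2 with BRZ. Col on mock was highest, Col on BRZ and arf2 on mock overlapped at the bottom, and arf2 on BRZ lay between. PME61 fell by 1.63 in Col and rose by 0.75 in arf2 on the log2 scale, and its interaction (2.37 ± 0.15, adjusted p 3.56e-05) had the smallest adjusted p of all named genes. MTP11, a manganese transporter, read 424, 362 and 434 on the Col mock arrays, 209.9, 290.2 and 299 on those of Col with BRZ, 329, 327 and 253 for mock-grown arf2 and 527 and 438 for arf2 with BRZ, down on BRZ in Col and up in arf2, with Col on BRZ and arf2 on mock overlapping at the bottom (1.30 ± 0.24, adjusted p 0.0252). AT2G44940, an AP2/ERF transcription factor, went the same way at lower intensity, with 57.4, 64.4 and 65.3 for Col mock, 49.98, 48.3 and 38.6 for Col BRZ, 41.2, 36.6 and 37.0 for arf2 mock and 54.4 and 52.3 for arf2 BRZ, highest on the Col mock arrays (0.94 ± 0.17, adjusted p 0.024). In the other direction, AT1G12010, an ACC oxidase of ethylene synthesis, read 155, 168 and 189 in the mock-grown wild type, 251, 242 and 206 in the wild type with BRZ, 431, 421 and 333 in mock-grown arf2 and 202 and 199 in arf2 with BRZ. It rose by 0.45 in Col and fell by 0.97 in arf2 from the highest level of the 4 groups (-1.42 ± 0.19, adjusted p 0.0047). AT2G44370, another C1 family gene (-1.61 ± 0.29, adjusted p 0.0245), the ankyrin repeat gene AT1G10340 (-1.19 ± 0.21, adjusted p 0.0224), AT1G19380 (-1.03 ± 0.19, adjusted p 0.0248) and AT5G06570 (-0.78 ± 0.12, adjusted p 0.0132) also rose in Col and fell in arf2. Several of these calls rest on a BRZ effect near the threshold. The larger limma adjusted p of the 2 effects was that in Col for AT2G44370 (0.0446), AT1G12010 (0.0449), AT1G19380 (0.0374) and AT5G06570 (0.0227). It was that in arf2 for AT1G10340 (0.0463), MTP11 (0.0459), AT2G44940 (0.0459) and PME61 (0.00193). Without Col mock array 1, Col BRZ arrays 1 or 2 or arf2 BRZ arrays 1 or 2, MTP11 was not called (adjusted p 0.0519 to 0.181). AT2G44940 was no longer called without Col BRZ array 2, arf2 mock arrays 2 or 3 or arf2 BRZ arrays 1 or 2 (adjusted p 0.0557 to 0.152). AT2G44370 was still called when Col mock arrays 2 or 3 or arf2 mock array 2 was left out singly, but not without any of the others (adjusted p 0.0546 to 0.172). Leaving out Col BRZ arrays 1 or 2, arf2 mock array 1 or arf2 BRZ arrays 1 or 2 ended the AT1G10340 call (adjusted p 0.0553 to 0.144). AT1G19380 was still called when Col mock arrays 1, 2 or 3 or arf2 mock array 3 was left out singly, but not without any of the others (adjusted p 0.06 to 0.144). AT5G06570 was no longer called without arf2 BRZ arrays 1 or 2 (adjusted p 0.0566 to 0.0795).

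Where both genotypes responded in the same direction, the interaction is a difference in size. AT5G57785 read 425, 427 and 442 on the Col mock arrays, 897, 829.5 and 806 on those of Col with BRZ, 80.3, 102 and 94.8 for mock-grown arf2 and 604 and 562 for arf2 with BRZ. It rose on BRZ in both genotypes without overlap, from a much lower start in arf2 on mock. The rise was 0.97 in Col and 2.67 in arf2 on the log2 scale, a difference of 1.70 ± 0.15, adjusted p 0.000377. P1R1 (1.003 ± 0.17, adjusted p 0.0182) and AT5G01740 (1.03 ± 0.20, adjusted p 0.0422) likewise rose more in arf2, the latter from 267, 369.9 and 321 to 1590.4, 1486 and 1825 in Col and from 147, 174 and 176 to 1877 and 1605 in arf2. AT5G63180, a pectate lyase, rose less in arf2, by 0.75 against 1.66 in Col, with 185, 183 and 196 for Col mock, 549, 654 and 577 for Col BRZ, 440.2, 442 and 384 for arf2 mock and 789 and 639.7 for arf2 BRZ. Its difference was -0.90 ± 0.16, adjusted p 0.0252, and the Col mock arrays were the lowest. EXPA4, an expansin, which loosens cell walls, read 941, 838 and 889 in the mock-grown wild type, 375, 331 and 332 in the wild type with BRZ, 375, 365 and 401 in mock-grown arf2 and 252 and 262 in arf2 with BRZ. It was highest on the Col mock arrays and fell by 1.36 in Col and by 0.56 in arf2 on the log2 scale (0.80 ± 0.13, adjusted p 0.0181). The call of P1R1 ended without Col BRZ arrays 2 or 3, arf2 mock array 1 or arf2 BRZ array 1 (adjusted p 0.0554 to 0.14). The AT5G01740 call was lost on removal of any single array (adjusted p 0.0501 to 0.267) other than Col mock arrays 1 or 2. AT5G63180 was still called when Col mock arrays 2 or 3, arf2 mock array 3 or arf2 BRZ array 1 was left out singly, but not without any of the others (adjusted p 0.051 to 0.129). EXPA4 was no longer called without Col BRZ arrays 2 or 3, arf2 mock array 1 or arf2 BRZ arrays 1 or 2 (adjusted p 0.0553 to 0.0935).

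Among larger falls in arf2, AT2G23120 read 1029, 1099 and 1183 on the Col mock arrays, 697, 619 and 668 on those of Col with BRZ, 2317, 2363 and 2642 for mock-grown arf2 and 813 and 713 for arf2 with BRZ. The arf2 mock arrays were highest, and the fall was 0.74 in Col and 1.68 in arf2 on the log2 scale (-0.94 ± 0.15, adjusted p 0.0121). The arf2 mock arrays were also highest, with a fall called in both genotypes, for AT1G20070 (-1.35 ± 0.25, adjusted p 0.0303), the SufE-type gene SUFE2 of iron-sulfur cluster assembly (-1.07 ± 0.19, adjusted p 0.0207), the protein phosphatase AT3G05640 (-0.89 ± 0.15, adjusted p 0.0181) and AT3G50350 (-0.74 ± 0.13, adjusted p 0.0242). The chitinase AT1G02360 had all arf2 mock arrays highest too (-1.002 ± 0.20, adjusted p 0.0495), although neither BRZ effect was called. The call of AT2G23120 ended without arf2 BRZ array 2 (adjusted p 0.0778). The AT1G20070 call was lost on removal of any single array (adjusted p 0.0512 to 0.174) other than Col mock arrays 2 or 3 or arf2 mock array 2. Without Col mock array 1, Col BRZ arrays 2 or 3 or arf2 BRZ arrays 1 or 2, SUFE2 was not called (adjusted p 0.0506 to 0.145). AT3G05640 was no longer called without Col BRZ arrays 1 or 3, arf2 mock array 1 or arf2 BRZ arrays 1 or 2 (adjusted p 0.0521 to 0.0998). AT3G50350 was still called when Col mock arrays 2 or 3 or Col BRZ array 3 was left out singly, but not without any of the others (adjusted p 0.0503 to 0.144). The AT1G02360 call was lost on removal of any single array (adjusted p 0.0566 to 0.198) other than Col mock array 2 or arf2 mock array 2.

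Calls among the measured members of the wall-modifying families are given beside the 0.731% of probe sets naming 1 gene that were called. Among all probe sets tested, 9.25% had an unadjusted p under 0.05, and the median interaction was -0.05. Of 36 expansins 19 were measured and EXPA4 was the 1 called, with a median interaction of 0.03 over the 19 and 5 at an unadjusted p under 0.05. The 10 measured of 33 XTH genes, which cut and rejoin xyloglucan, and the 15 measured of 21 GH9 endoglucanases gave no call by limma and medians of -0.01 for both, with 1 and 5 members at an unadjusted p under 0.05. PME61 was the 1 call among 4 measured of 20 pectin methylesterases and inhibitors, with 2 at an unadjusted p under 0.05. The 7 measured of 15 tubulins had a median of 0.27 with no call by limma and 2 at an unadjusted p under 0.05. Photosystem and light-harvesting genes (6 measured of 40, median -0.28, 1 at an unadjusted p under 0.05) gave no call by limma. Of 10 glutaredoxins found by symbol, a list that does not hold the called AT4G15680, 5 were measured, with a median of -0.12, no call by limma and 0 at an unadjusted p under 0.05. Probe sets for 69 of 85 chloroplast-encoded genes had a median of -0.36, with no call by limma and 12 at an unadjusted p under 0.05.

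Many of the 184 have no gene name in the annotation used, with 94 naming 1 gene, 4 several and 86 none. Among the unnamed, probe sets 247949_at (-3.47 ± 0.36 SE) and 260406_at (-2.83 ± 0.16) had the lowest interactions, and 253073_at (2.24 ± 0.21) and 264157_at (1.84 ± 0.16) the highest. There were 5456 pairs of adjacent genes in which both had a tested probe set naming them alone. Of these, 97 had a call at 1 or both members. The 2 with a call at both were AT1G26380 with AT1G26390 and AT2G38860 with AT2G38870 (-1.71 and -1.39). Pairs that involve unnamed probe sets were not counted. Just inside the threshold lay AT2G16900 (-0.63 ± 0.13, adjusted p 0.0494) and AT1G02360, and just outside lay AT1G72060 (-1.63 ± 0.33, adjusted p 0.0511) and the unnamed 245362_at (0.94 ± 0.19, adjusted p 0.0511). The lowest of the 4 group means was under a log2 value of 5 for 31 of the 184, and 20 of these were high only in arf2 on mock. On the linear scale the difference of differences had the same sign for all 184. Where only 1 group was high, or the 2 effects had opposite signs, this sign cannot differ between the scales. For those probe sets the agreement was fixed in advance.

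The count of calls changed when single arrays were left out. Without arf2 BRZ array 1 there were 62 calls and without array 2 there were 103, and each of these fits has 1 array in that group, assumed to vary like the others. Without Col BRZ array 1, 2 or 3 there were 98, 95 and 112, and without Col mock array 3 there were 344. Without the pair that departed together (array 2 of Col mock, array 3 of arf2 mock) there were 241, of which 167 were among the 184. Quantile normalization gave 240 calls, 101 above 0 and 139 below, so that 57.9% were below 0 in place of 70.1%. Of the 57 named genes none changed sign under 26 alternatives, which share most of their arrays with the reported fit. In each of these alternatives 14 kept their call. These 14 were AT1G26380, AT3G13610, AT2G16630, CCOAMT, AT5G39580, AT4G33550, AT5G10770, GH3.3, AT4G17470, AT2G16005, AT1G12010, PME61, AT1G67360 and AT5G57785.

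**Figure D5:**
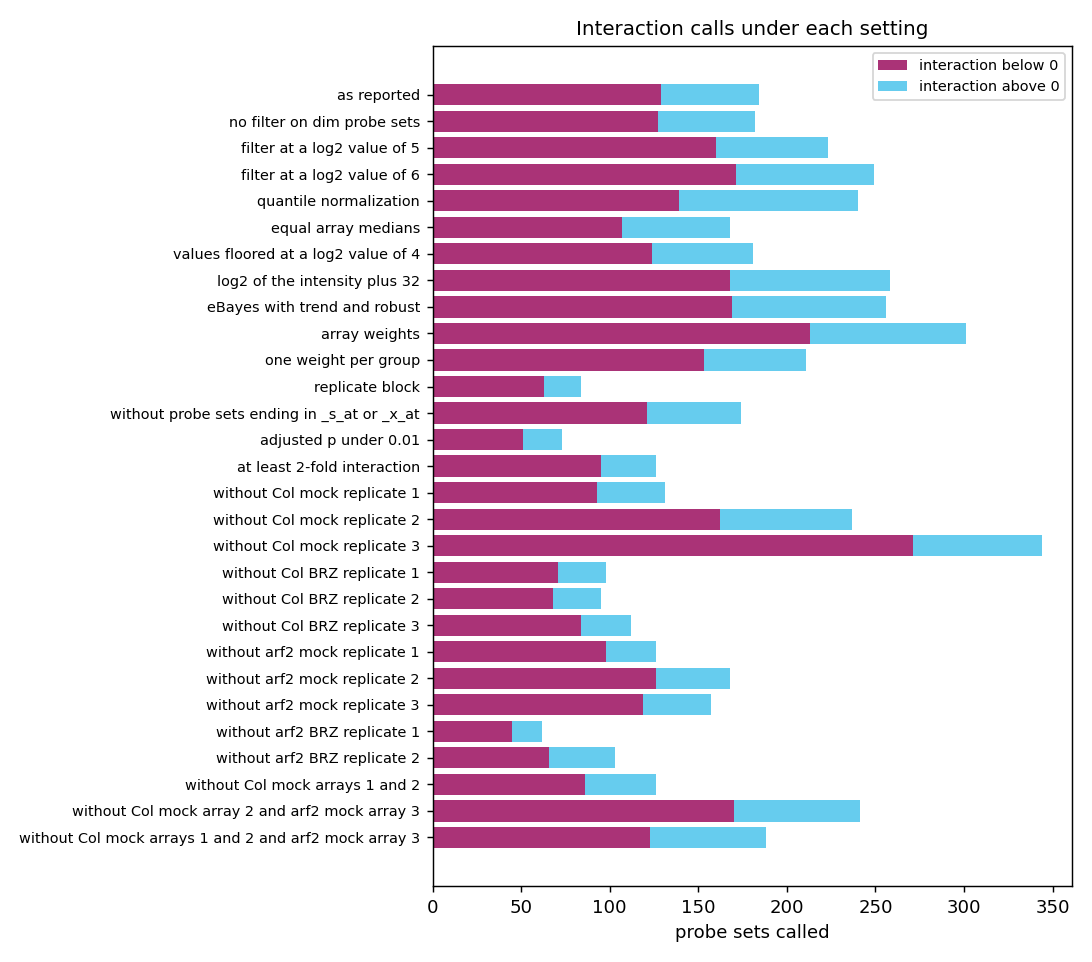
Probe sets with a called interaction (x axis, count) under the reported setting and each alternative (y axis), with the part below 0 and the part above 0 stacked. The count is 184 as reported, lowest at 62 without arf2 BRZ array 1 and highest at 344 without Col mock array 3, and the part below 0 is the larger one in each.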

How the data were processed

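RNA of 11 seedling samples was hybridised to ATH1 arrays, 1 array a sample, grouped by array title; the series text describes them as independent biological replicates, and p-values measure only the spread between these samples. The deposited intensity values per probe set had been normalized and estimated with gcRMA after quality control with simpleaffy, per the labels and series text, with versions not given in the sources used here. They were on a linear scale, so log2 of the deposited values was taken.

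Of 22810 probe sets, 64 controls and 860 below a floor (a log2 value above 4, reached by 2 arrays or more) were left out. The remaining 21886 were fitted in limma 3.58.1 (R 4.3.3) with 1 mean per group and 1 moderated variance per probe set, without a replicate term. The groups did not vary equally. In the alternative with 1 weight per group the weights were 0.44 for Col mock, 1.63 for Col BRZ, 1.09 for arf2 mock and 1.44 for arf2 BRZ. A lower weight means a wider spread, so the shared variance may understate the error of contrasts with Col mock. The interaction and the 4 simple contrasts were tested two-sided with Benjamini-Hochberg adjustment over all probe sets. Gene names came from the supplied probe table, updated through RefSeq, and 13513 probe sets name 1 gene. Named genes were, in each class and sign, the 6 with the largest interaction among calls naming 1 gene above log2 5 throughout at least 1 group, and called members of gene lists. Gene lists used 1 probe set a gene, the brightest of those tested that name it alone. Genes without such a probe set were not counted as measured.

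Members, classes and lists were chosen with earlier results of these data known, and the lists of peroxidases, berberine bridge enzymes, defensins, dirigent proteins and small heat shock proteins were written by locus after the calls were seen. The fit was tested on simulated data. Alternatives covered filters, normalization, offsets, variance models, weights, a replicate block and arrays left out. A planned scan of promoters for motifs was not run, and no sequence is shown. Figures were drawn with matplotlib 3.10.9.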

Additional observations from a re-analysis of the deposited data

Results flagged for a closer look

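The 184 called interactions, and the 57 genes named among them, are results where the BRZ effect in arf2 and that in Col differed by a direct test of the difference (limma, adjusted p under 0.05). The values in parentheses are the log2 interaction, and no explanation of them was tested.

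With a response called in arf2 alone, the interactions below 0 were AT1G26380 (-3.84), AT3G13610 (-3.44), AT2G16630 (-2.79), AT1G26390 (-2.78), AT3G16530 (-2.71), AT2G34930 (-2.48), AT1G14550 (-2.37), CCOAMT (-2.13), PDF1.4 (-1.80), AT5G39580 (-1.62), UGT84A3 (-1.29), AT5G37670 (-1.08), UGT73B1 (-0.99) and AT4G20830 (-0.94). Those above 0 were AT4G25780 (1.06), AT3G10080 (1.12), AT5G60760 (1.22), AT3G29410 (1.25), AT4G33550 (1.61) and AT5G10770 (1.71).

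With a response called in Col alone, those below 0 were AT3G05730 (-3.00), AT5G43520 (-2.16), AT1G78460 (-1.75), AT4G15680 (-1.65), AT1G33790 (-1.27), AT1G22890 (-1.23), GH3.3 (-1.02) and SWEET11 (-0.74). Above 0 were AT2G39430 (0.79), AT1G29195 (0.84), AT4G22460 (1.01), OCT1 (1.06), AT2G43535 (1.09), AT4G17470 (2.25) and AT2G16005 (3.79).

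Where the called responses had opposite signs, the values were AT2G44370 (-1.61), AT1G12010 (-1.42), AT1G10340 (-1.19), AT1G19380 (-1.03) and AT5G06570 (-0.78) below 0 and AT2G44940 (0.94), MTP11 (1.30) and PME61 (2.37) above. Where they had the same sign, they were AT1G20070 (-1.35), SUFE2 (-1.07), AT2G23120 (-0.94), AT5G63180 (-0.90), AT3G05640 (-0.89) and AT3G50350 (-0.74) below 0 and EXPA4 (0.80), P1R1 (1.003), AT5G01740 (1.03), AT1G67360 (1.04), AT2G41480 (1.06), AT4G11190 (1.22) and AT5G57785 (1.70) above. AT1G02360, with no response called in either genotype, had -1.002.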

How the results depend on the processing

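The setting moved the count of calls more than the direction of any named gene. Against 184 calls in all, 52 with a response called in Col alone and 94 in arf2 alone, array weights gave 301, 75 and 166, and an adjusted p under 0.01 gave 73, 20 and 45. In Col alone, a trend with robust variances gave 83, a 2-fold minimum on the interaction 30, classes by 2-fold effects 29, and the removal of both Col mock arrays 1 and 2 gave 24. Leaving out each array in turn gave 62 to 344 calls in all, 18 to 154 in Col alone and 32 to 126 in arf2 alone, with the lowest totals without arf2 BRZ array 1. Beyond the counts given above, the totals were 131 and 237 without Col mock arrays 1 and 2, and 126, 168 and 157 without arf2 mock arrays 1, 2 and 3. The replicate number did not show itself to pair the arrays, since 15 same-numbered pairs correlated at -0.586 to 0.136 with 3 over 0.1. With the replicate block the counts were 84, 23 and 45, all 84 of them among the 184, and 24 of the 57 named genes kept their call. Equal array medians gave 168 calls and moved the median interaction of all probe sets from -0.05 by about 0.1, and 49 named genes kept their call. Over the 1482 combinations of named gene and alternative, 1159 kept the call, 323 lost it and 0 changed sign. The named genes were chosen for called interactions and the alternatives share most arrays, so a change of sign was unlikely from the start. The other filters, the floor, the offset of 32, group weights and the removal of probe sets that may cross-hybridise left these 3 counts within 1.5 times the reported ones. Other counts moved more: with the offset of 32 the calls above 0 were 90 against 55 and those in both genotypes with the same sign 36 against 20, and with the filter at 6 the same-sign calls were 34 and the opposite ones 26 against 16. The number of arrays, above all the 2 of arf2 on BRZ, limits the precision, and arrays give no counts. The causes of these moves were not tested.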
